A study of Mus musculus with 14 samples.

Results

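The transcripts of 9 tricarboxylic acid cycle enzymes were followed in left ventricles of WT and HCN4F mice, taken after either TAC or Sham surgery. The genes were taken by name from the deposited count table, and all 9 (Cs, Idh2, Idh3a, Ogdh, Dlst, Suclg1, Sucla2, Fh1 and Mdh2) were found among its 49315 genes and passed the filter on low counts that left 15292 genes for testing. Succinate dehydrogenase is not among the 9 and was read beside them. HCN4F mice carry the gain-of-function change Y527F in the pacemaker channel HCN4, introduced by a knock-in in exon 4 of Hcn4, and WT mice do not. TAC (transverse aortic constriction) narrows the aorta and loads the left ventricle with pressure, whereas Sham mice had the operation without the constriction. All animals were males operated at 10 to 12 weeks of age, and the hearts were taken 5 weeks later. The mouse strain and the number of knock-in alleles are not given in the sources used here. HCN4F is a single knock-in line, and the change is present in every cell from the germ line on. Used here were 4 WT-Sham, 4 HCN4F-Sham, 4 HCN4F-TAC and 2 WT-TAC libraries, the last being replicates 2 and 3. The study describes 4 separate samples in each group.

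The tricarboxylic acid cycle runs in the mitochondrial matrix. It oxidises the acetyl group that fatty acids, glucose and ketone bodies deliver as acetyl-CoA, and it passes the electrons as NADH and FADH2 to the respiratory chain. The heart muscle cell, which beats without rest and is packed with mitochondria, has among the highest cycle capacities of the body. Citrate synthase (Cs) joins acetyl-CoA to oxaloacetate, and the isocitrate dehydrogenases follow, of which Idh3a encodes the catalytic subunit of the NAD-dependent enzyme and Idh2 the NADP-dependent one that supplies NADPH to the matrix. Ogdh and Dlst encode the decarboxylating and the succinyl-transferring components of the 2-oxoglutarate dehydrogenase complex. Succinyl-CoA ligase makes ATP or GTP at the substrate level. Suclg1 encodes its alpha subunit, shared by both forms, and Sucla2 the beta subunit of the ADP-using form. Fumarase (Fh1) and mitochondrial malate dehydrogenase (Mdh2) close the circle.

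Library depth was 22309914 to 35210939 counts, and the 9 transcripts together took 0.788% to 0.954% of them, so that every enzyme had at least 4852 reads in every library. The table lists counts above 0 in all 14 libraries for each of 10 cardiomyocyte markers, among them Myh6, Tnnt2 and Ryr2. Of 7 atrial markers, Sln was at 0 in 10 libraries (highest 115 counts), Bmp10 in 11 (highest 13), Dhrs9 in 5 (highest 4) and Myl7 in 3 (highest 301), while Nppa, Myl4 and Nr2f2 had counts in all 14. HCN4F-TAC replicate 2 stood apart: the atrial light chain genes Myl7 and Myl4 were at 9.91 and 17.4 CPM there, against at most 0.694 and 4.07 CPM in any other library. Genes encoded by the mitochondrial genome took 19.6 to 23.1% of the counts in WT-Sham, 18.4 to 20.03% in WT-TAC, 17.1 to 21.4% in HCN4F-Sham and 13.9 to 18.6% in HCN4F-TAC. The same HCN4F-TAC replicate 2 had the lowest of these shares, 13.9%, and the lowest sum of cardiomyocyte markers, 64206 CPM. Values are CPM, the reads of a gene scaled to 1000000 reads of the library after TMM normalization. In these bulk samples fewer heart muscle cells and less enzyme RNA per cell cannot be told apart.

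The 9 genes lie on 9 chromosomes. On GRCm38 Cs lies at chr10:128337734-128362479 (+), Idh2 at chr7:80094846-80115392 (-) and Idh3a at chr9:54586334-54604661 (+). Ogdh lies at chr11:6291633-6356642 (+), Dlst at chr12:85110833-85134845 (+), Suclg1 at chr6:73248382-73276911 (+) and Sucla2 at chr14:73525319-73596142 (+). Fh1 lies at chr1:175600374-175625635 (-) and Mdh2 at chr5:135778480-135790398 (+). All are protein-coding genes, whose reference transcripts have from 9 exons in Suclg1 and Mdh2 to 23 in Ogdh. Idh3a is on the same chromosome as the modified Hcn4 gene (chr9:58823412-58863175), so for Idh3a the genotype and the chromosomal region carried along with the knock-in cannot be told apart.

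The promoters of the subunits of succinyl-CoA ligase are shown because of the results after TAC. Suclg1 was the one of the 9 enzyme transcripts that passed the test in both genotypes, where it was lower. Its partner Sucla2 did not pass in either, and the difference between the subunits was not tested. Both windows run 5′ to 3′ on the + strand from 250 bases before to 50 bases after the RefSeq transcript start (GRCm38.p6). Suclg1 is at chr6:73248255-73248554 and Sucla2 at chr14:73552536-73552835. Capitals mark a match to the NRF1 site, a motif of genes for mitochondrial proteins.
Suclg1: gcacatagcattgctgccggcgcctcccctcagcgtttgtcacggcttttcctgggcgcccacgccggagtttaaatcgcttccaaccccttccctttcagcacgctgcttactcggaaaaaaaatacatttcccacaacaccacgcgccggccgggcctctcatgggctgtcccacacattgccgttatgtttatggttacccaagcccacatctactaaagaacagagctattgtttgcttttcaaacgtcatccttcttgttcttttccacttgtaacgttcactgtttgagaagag
Sucla2: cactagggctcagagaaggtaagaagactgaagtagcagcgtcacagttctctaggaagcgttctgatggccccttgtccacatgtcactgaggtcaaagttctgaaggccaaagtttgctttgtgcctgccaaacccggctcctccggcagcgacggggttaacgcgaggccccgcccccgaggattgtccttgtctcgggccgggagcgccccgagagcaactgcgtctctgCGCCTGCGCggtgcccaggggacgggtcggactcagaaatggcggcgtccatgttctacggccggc
Of the 9 genes, 8 had a RefSeq promoter, and Idh3a had none in the table. Both strands were searched for 5 motifs spelled in letters, which did not overlap in the matches printed. The NRF1 site GCGCANGCG was found in 2 of the 8 genes (Ogdh and Sucla2, where it starts 16 bases before the transcript start) and in 7.03% of the 27025 genes with a promoter. CCAAT was found in 4 genes (Cs, Idh2, Ogdh and Fh1) against 41.1% of all, and the ETS site CCGGAAG in Dlst alone against 9.93%. The ERR element TNAAGGTCA (1.43% of all genes) and the YY1 site AAGATGGCG (1.64%) were in none of the 8 windows. The Suclg1 window held no match to any of the 5 motifs.

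Levels were compared between enzymes per kilobase of the reference transcript. In WT-Sham hearts Idh2 stood highest at 1294 ± 75.8 CPM per kilobase (SD, n = 4), followed by Mdh2 at 863 ± 27.5 and Ogdh at 572 ± 39.7. Cs came next at 392 ± 20.3 CPM per kilobase. The NADP-dependent isocitrate dehydrogenase thus had the most abundant transcript per length of the 9. Dlst (217 to 247 CPM per kilobase), Sucla2 (203 to 217), Suclg1 (193 to 228) and Idh3a (194 to 206) each overlapped with the next in this order over the 4 libraries, so the order of these neighbours is not resolved. Fh1 was lowest at 141 ± 0.549 CPM per kilobase. In HCN4F-TAC hearts the first 5 places were the same, and Suclg1 at 135 ± 11.3 and Sucla2 at 172 ± 14.1 CPM per kilobase no longer overlapped, with ranges of 121 to 145 and 157 to 188. These hearts differ from WT-Sham in both genotype and surgery.

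The first question was which enzyme transcripts changed with pressure overload in each genotype. Suclg1, the shared alpha subunit of succinyl-CoA ligase, fell in both: it fell by 24.6% in WT and fell by 24.9% in HCN4F hearts. It was the only one of the 9 past an adjusted p of 0.05 (quasi-likelihood test of edgeR, Benjamini-Hochberg adjustment over the tested genes). In WT hearts 1 of the 9 was called, against 4.54% of all genes tested in either direction and 1.62% in the downward one. In HCN4F hearts it was again 1 of the 9, against 13.6% of all genes and 6.41% downward, so in HCN4F the share of called enzymes was near the background. Of the 9 enzymes, 7 had a negative log2 fold change in WT and 8 in HCN4F, with medians of -0.07 and -0.12 beside -0.02 and -0.0067 over all genes tested. None reached the 2-fold change that the study's own rule asks for, which 0.706% of all genes met in WT and 2.75% in HCN4F.

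**Figure D1:**
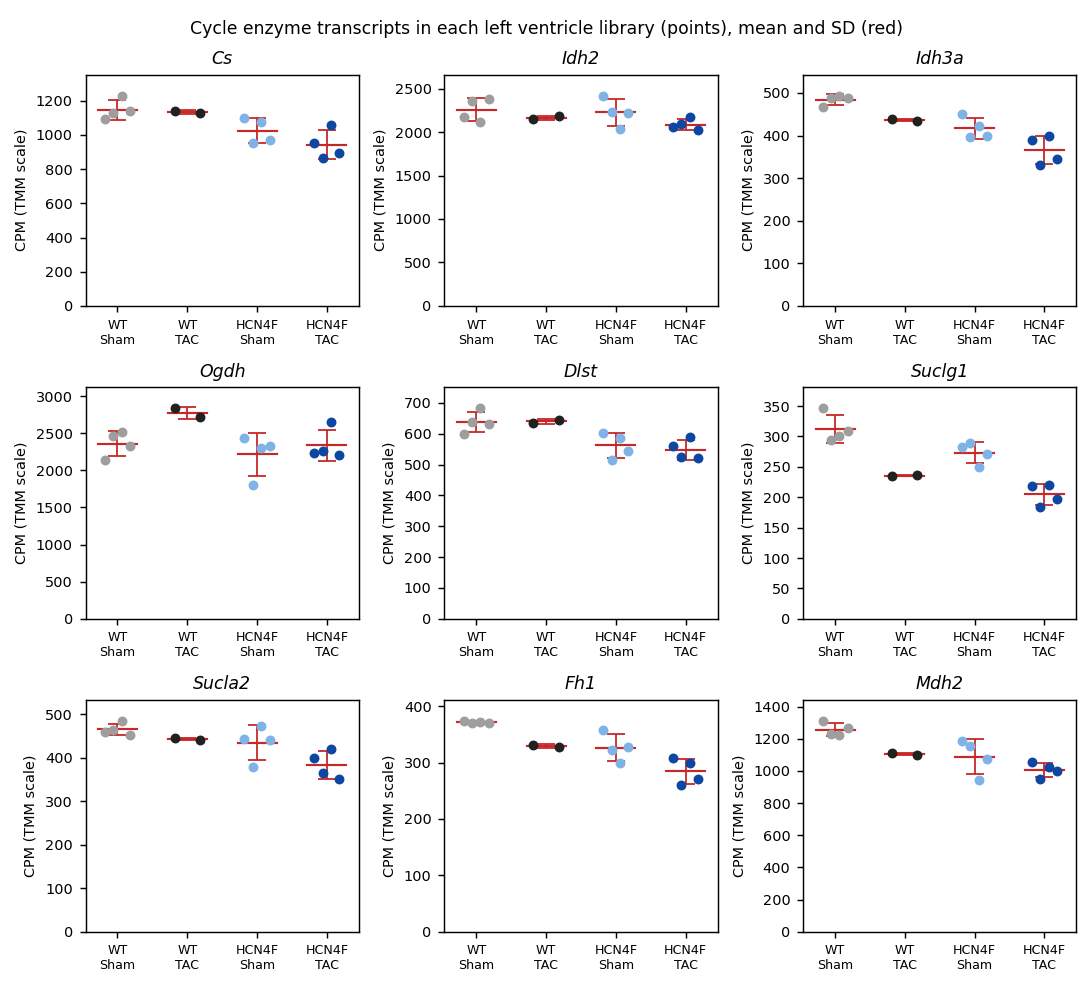
CPM on the TMM scale (vertical axes, each from 0) of each of the 9 enzymes in the 14 left ventricle libraries, by group (horizontal axes), with the group mean and SD in red (n = 4, and n = 2 in WT-TAC). The Suclg1 libraries of both TAC groups lie below all libraries of their Sham groups, while Idh2 overlaps among all groups.

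Suclg1 was at 346, 294, 300.4 and 309 CPM in the WT-Sham libraries and 235 and 236 CPM in the WT-TAC libraries. In HCN4F hearts it was at 283, 289.7, 249 and 271 CPM after Sham and 219, 184, 219.6 and 197 CPM after TAC. In both genotypes every TAC library lay below every Sham library, and replicate 1 was the highest of the WT-Sham libraries. The group means were 312 ± 23.3 CPM (SD, n = 4) and 235 ± 1.12 CPM (SD, n = 2) in WT, and 273 ± 17.6 CPM (SD, n = 4) and 205 ± 17.2 CPM (SD, n = 4) in HCN4F. The log2 fold change after TAC was -0.41 ± 0.10 (SE) in WT (adjusted p = 0.0298) and -0.41 ± 0.08 (SE) in HCN4F (adjusted p = 0.00226). With libraries left out in turn, the call in WT was lost without WT-Sham replicate 1 (adjusted p = 0.0830) or replicate 4 (0.0731) and with either WT-TAC library left out (0.141 without replicate 2, 0.250 without replicate 3), where the log2 fold change stayed between -0.41 and -0.36. In HCN4F it held in all 22 alternatives that kept the adjusted p as the rule, at log2 fold changes of -0.46 to -0.33. HCN4F-TAC replicate 2, the library high in Myl7 and Myl4, was the lowest of its group in Suclg1, Cs, Idh3a, Fh1 and Mdh2, and without it the Suclg1 value in HCN4F was -0.37 (adjusted p = 0.0107). The median of the 9 enzymes without that library was -0.10 after TAC in HCN4F and -0.20 for HCN4F against WT after TAC, with 1 and 0 called.

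Sucla2, the beta subunit that pairs with Suclg1 in the ADP-using ligase, was at 459.9, 465, 484 and 453 CPM in WT-Sham and 445 and 441 CPM in WT-TAC. It was at 444, 379, 474 and 441 CPM in HCN4F-Sham and 399, 365, 419 and 350.4 CPM in HCN4F-TAC. The WT-TAC libraries were just under the WT-Sham ones, and among the HCN4F-Sham libraries only replicate 2 lay within the TAC range. The log2 fold change was -0.07 ± 0.09 (SE) in WT (adjusted p = 0.709) and -0.18 ± 0.08 (SE) in HCN4F (adjusted p = 0.134). Without HCN4F-Sham replicate 2 the value in HCN4F was -0.24 and passed the test (adjusted p = 0.0384).

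Citrate synthase is often used as a measure of mitochondrial content, but only its RNA was measured here, not the enzyme or its activity. The Cs transcript was at 1089.9, 1127, 1229.7 and 1137 CPM in WT-Sham and 1139.7 and 1126 CPM in WT-TAC. In HCN4F hearts Cs was at 1099, 952, 1078 and 971 CPM after Sham and 955, 864, 1056 and 894 CPM after TAC. The Sham and TAC libraries overlapped in both genotypes. The log2 fold change was -0.02 ± 0.09 (SE) in WT, with a 95% interval of -0.21 to 0.18, and -0.12 ± 0.08 (SE) in HCN4F, with an interval of -0.28 to 0.04 (adjusted p = 0.943 and 0.317). The sign in WT turned to positive on library totals without TMM, with no filter, and without WT-Sham replicate 3.

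The isocitrate dehydrogenases did not pass the test after TAC. Idh2 was at 2173, 2358, 2116 and 2382 CPM in WT-Sham, 2147 and 2179.9 CPM in WT-TAC, 2419, 2228, 2039 and 2216 CPM in HCN4F-Sham and 2052, 2089, 2169 and 2022 CPM in HCN4F-TAC. These libraries overlapped in every comparison, and the log2 fold changes after TAC were -0.06 ± 0.08 (SE) and -0.10 ± 0.07 (SE) in WT and HCN4F (adjusted p = 0.712 and 0.388). Idh3a was at 466, 489, 494 and 488 CPM in WT-Sham, 438 and 435 CPM in WT-TAC, 450.1, 396, 422 and 399.6 CPM in HCN4F-Sham and 388, 331, 399 and 345 CPM in HCN4F-TAC. Its WT-TAC libraries lay below the WT-Sham ones, and in HCN4F only HCN4F-TAC replicate 3 reached into the Sham range. Idh3a had log2 fold changes of -0.15 ± 0.09 (SE) in WT (adjusted p = 0.344) and -0.19 ± 0.07 (SE) in HCN4F (adjusted p = 0.0931, and 0.0462 without HCN4F-TAC replicate 3).

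Ogdh, the component of the 2-oxoglutarate dehydrogenase complex that carries out the decarboxylation, was the enzyme with a positive log2 fold change after TAC in both genotypes. It was at 2146, 2458, 2515 and 2328 CPM in WT-Sham and 2835 and 2722 CPM in WT-TAC, so both TAC libraries were above all Sham libraries. In HCN4F it was at 2437, 1798, 2295 and 2332 CPM after Sham and 2232, 2263, 2647 and 2202 CPM after TAC, with overlapping groups, a low HCN4F-Sham replicate 2 and a high HCN4F-TAC replicate 3. The log2 fold change was 0.23 ± 0.11 (SE) in WT (95% interval -0.0054 to 0.47, adjusted p = 0.239) and 0.08 ± 0.09 (SE) in HCN4F (95% interval -0.12 to 0.27, adjusted p = 0.632). The WT difference passed the test with the WT groups fitted alone (0.25, adjusted p = 0.0400), and the HCN4F value was -0.01 without HCN4F-Sham replicate 2. Dlst, the partner in the same complex, was at 600.0, 639, 682 and 631 CPM in WT-Sham, 634 and 645 CPM in WT-TAC, 604, 514, 586 and 544 CPM in HCN4F-Sham and 559.9, 523, 589 and 519.7 CPM in HCN4F-TAC. Its TAC and Sham libraries overlapped in both genotypes, with log2 fold changes of 0.0042 ± 0.09 (SE) and -0.04 ± 0.07 (SE) (adjusted p = 0.986 and 0.782). Both Dlst values change sign under other settings, in WT for example without WT-Sham replicate 1 and in HCN4F on library totals without TMM.

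Of the enzymes after succinate, fumarase had the smallest spread among the WT-Sham hearts. Fh1 was at 373, 370.3, 371 and 370.2 CPM in WT-Sham, 332 and 327 CPM in WT-TAC, 357, 323, 299 and 327 CPM in HCN4F-Sham and 308, 259, 299 and 272 CPM in HCN4F-TAC. The WT-TAC libraries lay below all WT-Sham libraries, and in HCN4F the TAC libraries of replicates 1 and 3 reached into the Sham range. Its log2 fold changes were -0.17 ± 0.09 (SE) in WT (adjusted p = 0.263) and -0.20 ± 0.07 (SE) in HCN4F (adjusted p = 0.0766), and the HCN4F value passed the test in DESeq2 (adjusted p = 0.0428) and without HCN4F-Sham replicate 3 (0.0308). Mdh2 was at 1309, 1231, 1221 and 1267 CPM in WT-Sham, 1111 and 1100.0 CPM in WT-TAC, 1189, 1157, 941 and 1073 CPM in HCN4F-Sham and 1054, 948, 1027 and 999.6 CPM in HCN4F-TAC. WT-TAC again lay below WT-Sham and the HCN4F groups overlapped, with log2 fold changes of -0.19 ± 0.09 (SE) and -0.11 ± 0.07 (SE) (adjusted p = 0.250 and 0.336).

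With 2 WT-TAC libraries, groups that do not overlap are common in WT. The TAC libraries lay below all Sham libraries for 5 of the 9 enzymes (Idh3a, Suclg1, Sucla2, Fh1 and Mdh2), against 20% of all genes tested, and above them for 1 (Ogdh), against 19.2%. In HCN4F, with 4 libraries on each side, Suclg1 alone was apart in the downward direction, against 7.16% of all genes.

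**Figure D2:**
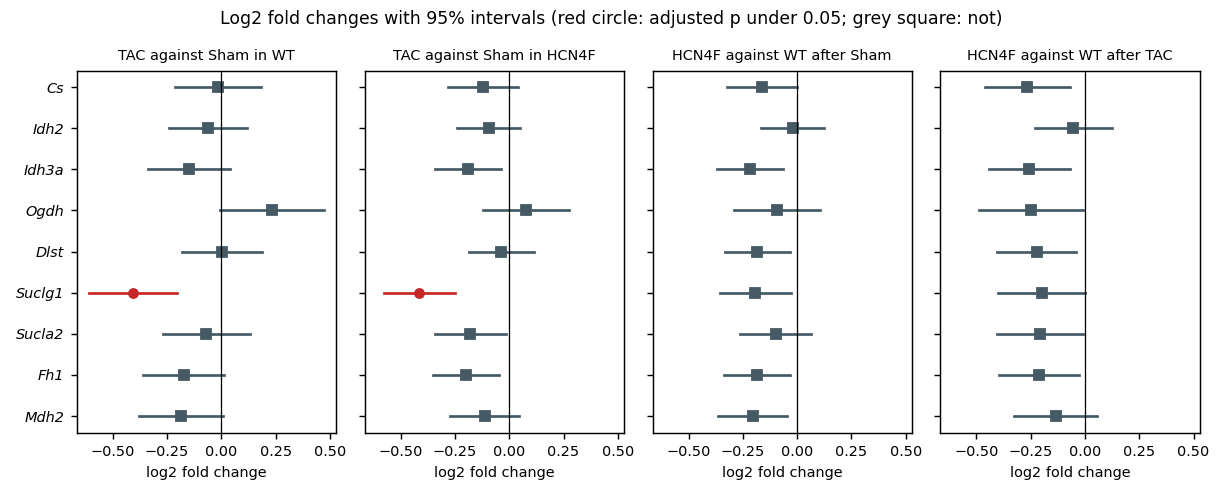
Log2 fold changes of the 9 enzymes (points, horizontal axes) with 95% intervals (lines) from the edgeR fit over 14 libraries, in 4 panels for the comparisons of TAC with Sham and of HCN4F with WT. Suclg1 (-0.41 in both genotypes after TAC) is the one enzyme drawn in red for an adjusted p under 0.05, and all points of the HCN4F against WT panels lie below 0.

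The second question was whether the genotypes differed at the same surgery. All 9 enzymes had lower values in HCN4F than in WT hearts, after Sham and after TAC, and none passed the test (quasi-likelihood test of edgeR, Benjamini-Hochberg adjustment). The titles of all HCN4F samples carry lower numbers than those of all WT samples, and in WT those of TAC are lower than those of Sham. What the numbers record is not stated. A difference that follows them cannot be told apart from genotype, or in WT from surgery. After Sham the log2 fold changes ran from -0.22 in Idh3a (adjusted p = 0.175) and -0.21 in Mdh2 (0.207) to -0.02 in Idh2 (0.918), with a median of -0.18 beside 0.0048 over all genes. Called were 0 of the 9 enzymes against 0.471% of all genes. The edgeR test gave 2323 of all genes an unadjusted p under 0.05, among them Idh3a, Dlst, Suclg1, Fh1 and Mdh2. DESeq2 likewise called 0 of the 9. The HCN4F-Sham libraries lay below all WT-Sham libraries for 4 enzymes (Idh3a, Suclg1, Fh1 and Mdh2), against 4.67% of all genes. For Idh3a this meant 450.1, 396, 422 and 399.6 CPM in HCN4F-Sham against 466, 489, 494 and 488 CPM in WT-Sham. In Cs, Dlst, Sucla2 and Ogdh the HCN4F-Sham libraries reached into the WT-Sham range, and HCN4F-Sham replicate 2 was the lowest of its group in Cs, Idh3a, Ogdh, Dlst and Sucla2. Idh2 changed sign without HCN4F-Sham replicate 3 or WT-Sham replicates 2 or 4.

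After TAC the log2 fold changes of HCN4F against WT ran from -0.27 in Cs (adjusted p = 0.249) and -0.26 in Idh3a (0.236) to -0.05 in Idh2 (0.846), with a median of -0.21 beside 0.0036 over all genes. Here too 0 of the 9 were called by edgeR's quasi-likelihood test, against 0.111% of all genes, and 0 by DESeq2. The edgeR test gave 1904 of all genes an unadjusted p under 0.05, among them Cs, Idh3a, Ogdh, Dlst, Sucla2 and Fh1. The HCN4F-TAC libraries lay below both WT-TAC libraries for 8 of the 9 enzymes, all but Idh2, against 11% of all genes. Cs, for example, was at 955, 864, 1056 and 894 CPM in HCN4F-TAC and at 1139.7 and 1126 CPM in WT-TAC. Ogdh, at 2232, 2263, 2647 and 2202 CPM against 2835 and 2722 CPM, was apart although HCN4F-TAC replicate 3 came close. The 9 transcripts were measured in the same libraries, so that their number does not count as that many separate observations, and each comparison shares its libraries with the comparisons of TAC against Sham.

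Summed over the 9 enzymes, the transcripts amounted to 9292 ± 221 CPM (SD, n = 4) in WT-Sham, 9264 ± 73.1 CPM (n = 2) in WT-TAC, 8569 ± 525 CPM (n = 4) in HCN4F-Sham and 8155 ± 477 CPM (n = 4) in HCN4F-TAC. The sum over 10 cardiomyocyte markers ordered the groups in the same way from WT to HCN4F, at 87123 to 88605 CPM in WT-Sham, 80863 to 82176 in WT-TAC, 76102 to 85047 in HCN4F-Sham and 64206 to 75094 in HCN4F-TAC. None of the 10 markers was called between the genotypes, beside 0.471% of all genes after Sham and 0.111% after TAC. After TAC 2 of the 10 fell in WT, and 4 fell and 2 rose in HCN4F. Over all genes 4.54% were called in WT (1.62% lower) and 13.6% in HCN4F (6.41% lower). Per 100 cardiomyocyte marker reads there were 10.6 ± 0.326 enzyme reads in WT-Sham and 10.6 ± 0.441 in HCN4F-Sham (SD, n = 4 each). After TAC there were 11.4 ± 0.219 (n = 2) in WT and 11.4 ± 0.816 (n = 4) in HCN4F. On this scale the groups of like surgery overlapped between the genotypes. The sum over 8 fibroblast markers was 825 to 838 CPM in WT-Sham, 781 to 938 in WT-TAC, 792 to 1017 in HCN4F-Sham and 998 to 1753 in HCN4F-TAC. Of the 8, 5 were called higher after TAC in HCN4F and 0 in WT, beside the 13.6% and 4.54% of all genes called in either direction. The sum over the 4 atrial markers that passed the filter, most of it Nppa, was 90.5 to 204 CPM in the Sham libraries of both genotypes, 212 to 263 in WT-TAC and 426 to 1877 in HCN4F-TAC. Of the 4, 1 was called after TAC in HCN4F and 0 in WT, beside the same 13.6% and 4.54% of all genes. It was Nppa, the natriuretic peptide gene that loaded ventricles also express, which rose in HCN4F with a log2 fold change of 3.21 (adjusted p = 0.00164). In WT its log2 fold change was 0.93 (edgeR adjusted p = 0.333). Both WT-TAC libraries (194.6 and 244.2 CPM) lay above all WT-Sham libraries (at most 182.1 CPM) in Nppa. The interaction called none of the 4. Of 10 macrophage and monocyte markers 1 was called higher after TAC in HCN4F, as was 1 of the 2 lymphocyte markers that passed the filter. Of 8 endothelial and 8 smooth muscle and pericyte markers 0 were called there, and in WT 0 of these 4 lists. The lymphocyte sum was low throughout, at 1.42 to 2.01 CPM in HCN4F-Sham and 2.26 to 3.62 in HCN4F-TAC. The part of cell composition in the enzyme values was not tested.

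Whether TAC acted differently on the enzymes in the genotypes was asked with an interaction term of genotype and surgery. None of the 9 passed (0 of 15292 genes did in edgeR's quasi-likelihood test, 0% of all, while 1418 had an unadjusted p under 0.05 and DESeq2 called 40). In the edgeR test the lowest unadjusted p of the 9 was 0.300, in Ogdh. The interaction ran from -0.16 in Ogdh (95% interval -0.47 to 0.15) to 0.07 in Mdh2 (-0.18 to 0.32) on the log2 scale. For Suclg1 the responses differed by -0.0064, with an interval of -0.27 to 0.25 (adjusted p = 0.994). A difference between the genotypes of either sign within this interval was therefore not excluded. The signs for Suclg1, Fh1 and Idh2 turned on library totals without TMM.

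Ratios of enzyme reads within a library do not depend on the scaling between libraries. NADP-dependent Idh2 had 4.66, 4.82, 4.28 and 4.88 reads per Idh3a read in WT-Sham and 5.37, 5.63, 4.83 and 5.55 in HCN4F-Sham. In TAC hearts the ratio was 4.90 and 5.01 in WT and 5.28, 6.31, 5.44 and 5.87 in HCN4F. The HCN4F-Sham libraries were mostly above the WT-Sham ones and overlapped in 1 library, with means of 5.34 ± 0.361 and 4.66 ± 0.268 (SD, n = 4 each; exact two-sided permutation p = 0.0571, 0.171 after adjustment over 6 tests). The ADP form over the GDP form of succinyl-CoA ligase, Sucla2 to Suclg2, was 3.49 ± 0.0750 in HCN4F-Sham and 3.23 ± 0.161 in HCN4F-TAC (SD, n = 4 each; exact permutation p = 0.0571, adjusted 0.171). Mitochondrial over cytosolic malate dehydrogenase, Mdh2 to Mdh1, was 0.854 ± 0.0682 and 0.931 ± 0.0335 in the same groups (SD, n = 4 each; exact permutation p = 0.0857, adjusted 0.171). None of the 6 tests passed (adjusted exact permutation p from 0.171 to 0.714), and the smallest p that 4 against 4 libraries allow is 0.0286. A single ratio at that smallest p has an adjusted p of 0.171 over the 6 exact tests, so no ratio could have passed alone and the missed threshold says little. The ratio of the ligase subunits Suclg1 to Sucla2 was chosen after the values were seen and is given without a test. It was 0.752, 0.632, 0.621 and 0.682 in WT-Sham and 0.527 and 0.535 in WT-TAC, where the TAC libraries were lower, and 0.637, 0.764, 0.526 and 0.614 in HCN4F-Sham and 0.548, 0.505, 0.524 and 0.563 in HCN4F-TAC, where HCN4F-Sham replicate 3 lay within the TAC range.

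**Figure D3:**
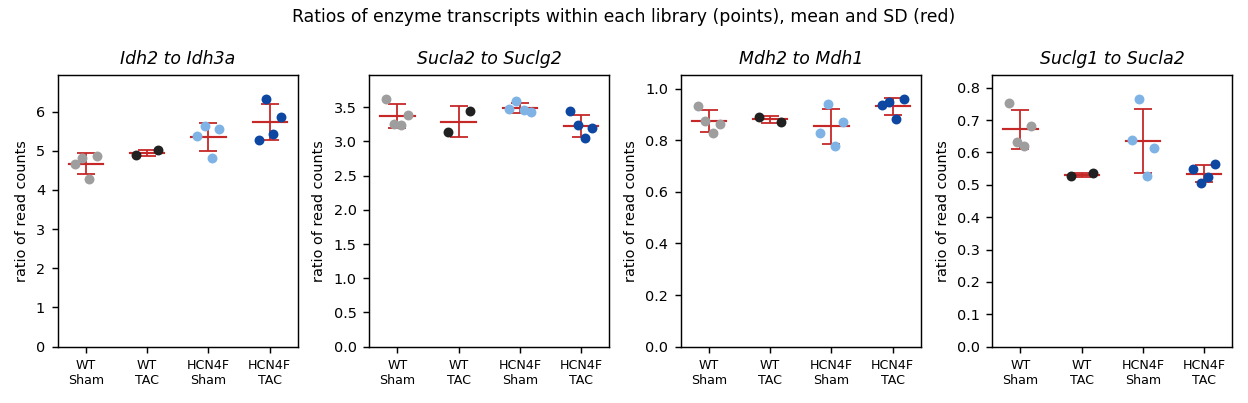
Ratios of read counts of enzyme pairs within each library (vertical axes, from 0; points) by group, with group mean and SD in red (n = 4, and n = 2 in WT-TAC). Idh2 to Idh3a is at 4.66 on average in WT-Sham and 5.73 in HCN4F-TAC, and Suclg1 to Sucla2 is at 0.672 and 0.535.

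Further genes of the cycle were read from a list of 7. After TAC in HCN4F 4 of them fell, 0 rose and 3 did not pass, and in WT 0 of 7 passed, with medians of -0.24 and -0.17. Over all genes 6.41% fell in HCN4F and 1.62% in WT. Whether the genotypes differed in this was tested only by the interaction, which called none of the 7. Sdhc, a membrane anchor of succinate dehydrogenase, was at 385, 329, 321 and 331 CPM in HCN4F-Sham and 275, 244, 289 and 245 CPM in HCN4F-TAC, with no overlap, a log2 fold change of -0.38 ± 0.08 (SE) and an adjusted p of 0.00369. Sdhb, the iron-sulfur subunit of succinate dehydrogenase, was at 843, 803, 657 and 721 CPM and 645, 562, 672 and 618 CPM in these groups, where TAC replicate 3 lay above Sham replicate 3, and had a log2 fold change of -0.28 ± 0.08 (SE) (adjusted p = 0.0310). Idh3g and Idh3b, the regulatory subunits that assemble with Idh3a, had log2 fold changes of -0.26 ± 0.07 (SE) (adjusted p = 0.0221) and -0.24 ± 0.07 (SE) (adjusted p = 0.0367). Idh3a itself, at -0.19, did not pass. In WT the same 4 genes had log2 fold changes of -0.28 (Sdhc), -0.26 (Sdhb), -0.25 (Idh3g) and -0.17 (Idh3b), with adjusted p from 0.0890 to 0.279. The flavoprotein subunit Sdha (-0.22 in HCN4F), the anchor Sdhd (-0.11) and the GDP-form subunit Suclg2 (-0.07) did not pass. Between genotypes none of the 7 was called and all had negative values, from -0.31 in Sdhd to -0.10 in Sdha after Sham and from -0.33 in Sdha to -0.18 in Suclg2 after TAC. Sdhd, like Idh3a, lies on the chromosome of Hcn4. The calls after TAC in HCN4F held in 22 of 22 alternatives for Sdhc, 16 for Idh3g, 15 for Sdhb and 11 for Idh3b. Without HCN4F-TAC replicate 2 the call on Sdhc held (adjusted p = 0.0147), and those on Idh3g (0.0610), Idh3b (0.0997) and Sdhb (0.1004) were lost. The log2 fold changes were then -0.25 for Idh3g, -0.21 for Idh3b and -0.23 for Sdhb.

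**Figure D4:**
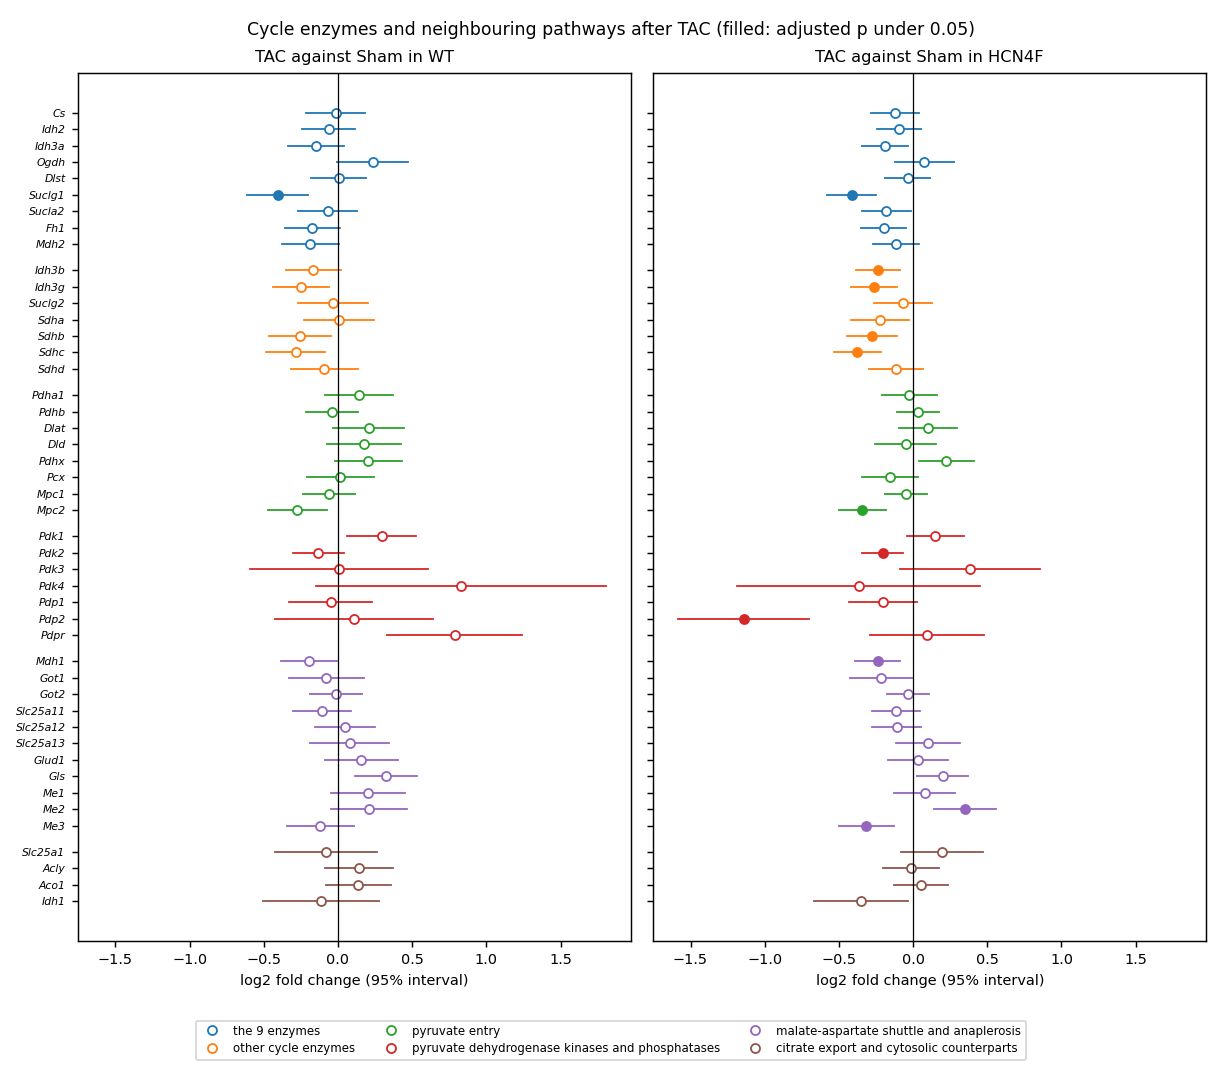
Log2 fold changes after TAC (points, horizontal axes) with 95% intervals in WT and HCN4F, for the 9 enzymes, 7 further cycle genes and 4 lists of neighbouring genes, coloured by list. Filled points mark an adjusted p under 0.05, which is Suclg1 alone in WT, and Suclg1, Idh3b, Idh3g, Sdhb, Sdhc, Mpc2, Pdk2, Pdp2, Mdh1, Me2 and Me3 in HCN4F.

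The routes into and around the cycle were read from 4 further lists, beside the 13.6% of all genes called after TAC in HCN4F and the 4.54% called in WT. In HCN4F, of 8 genes of pyruvate entry 1 fell, Mpc2, a subunit of the mitochondrial pyruvate carrier, at -0.34 ± 0.08 (SE) (adjusted p = 0.00699). Of 7 kinases and phosphatases that switch pyruvate dehydrogenase off and on, 2 fell. Pdp2, an activating phosphatase, was at 48.2, 39.6, 50.5 and 53.5 CPM in HCN4F-Sham and 20.5, 18.4, 32.0 and 16.0 CPM in HCN4F-TAC, and its log2 fold change of -1.14 ± 0.20 (SE) (adjusted p = 0.00293) was larger in size than that of any of the 9 cycle enzymes. Pdp2 was at 38.1, 35.2, 22.6 and 29.0 CPM in WT-Sham and 31.3 and 35.9 CPM in WT-TAC, so every HCN4F-Sham library lay above the WT-Sham ones (log2 fold change 0.62 ± 0.20 (SE), adjusted p = 0.175). After TAC in WT Pdp2 had 0.11 ± 0.25 (SE) (adjusted p = 0.838), and its interaction did not pass (adjusted p = 0.394). Pdk2, an inactivating kinase, was at -0.20 ± 0.07 (SE) (adjusted p = 0.0496) and kept its call in 5 of 22 alternatives. Of 11 genes of the malate-aspartate shuttle and of anaplerosis (the refilling of cycle intermediates), Me2 rose (0.35 ± 0.10 (SE), adjusted p = 0.0278), whereas Me3 (-0.31 ± 0.09 (SE), adjusted p = 0.0249) and cytosolic Mdh1 (-0.24 ± 0.07 (SE), adjusted p = 0.0369) fell. The calls held in 22 of 22 alternatives for Mpc2 and Pdp2, 16 for Me2, 15 for Me3 and 11 for Mdh1. Without HCN4F-TAC replicate 2 those on Mpc2 (adjusted p = 0.0271) and Pdp2 (0.0136) held, and those on Pdk2, Me2, Me3 and Mdh1 were lost (0.0680 to 0.104). The log2 fold changes were then -0.21 for Pdk2, 0.34 for Me2, -0.27 for Me3 and -0.20 for Mdh1. Me2 and Me3 encode mitochondrial malic enzymes, which turn malate into pyruvate. Of 4 genes of citrate export and the cytosolic counterparts none passed. In WT, with 2 TAC libraries, no gene of the 4 lists was called. The log2 fold changes there were -0.27 for Mpc2, -0.13 for Pdk2, 0.21 for Me2, -0.12 for Me3 and -0.20 for Mdh1, each of the same sign as in HCN4F (adjusted p from 0.0995 to 0.551). The interaction called none of these genes (adjusted p from 0.688 to 0.944), so a difference between the genotypes in their response was not shown.

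Across the 14 libraries the 9 transcripts had a median pairwise Pearson r of 0.679 over 36 pairs (from -0.186 to 0.957), and of 0.403 (from -0.307 to 0.948) after the group means were removed. These are descriptions, since the pairs share the libraries, their scaling and the group differences. The tested genes outside the lists whose log2 CPM followed the mean of the 9 most closely were Atp5a1 (r = 0.988), Slc25a3 (0.977), Aldh4a1 (0.972), Mmadhc (0.967) and Acadvl (0.967), each over 14 libraries. Atp5a1 encodes the alpha subunit of ATP synthase, Slc25a3 the mitochondrial phosphate carrier and Acadvl an enzyme of fatty acid oxidation. With group means removed their r was between 0.897 and 0.97. Atp5a1, for instance, averaged 4329 CPM in WT-Sham, 4025 in WT-TAC, 3913 in HCN4F-Sham and 3399 in HCN4F-TAC.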

How the data were processed

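Per the labels, polyA-selected RNA from left ventricle was sequenced. The authors deposited raw counts, whole numbers of reads per gene in each library with no normalization. The submitters' processing notes name GRCm38. Aligner, counting program, gene annotation and strand setting are not given in the sources used here. Samples were grouped by their genotype and treatment labels. Another 2 columns of the table matched none of the samples and were left out.

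Genes were filtered with filterByExpr, scaled with TMM and fitted in 1 model over all groups with edgeR 4.0.16 (quasi-likelihood test, robust, R 4.3.3). P-values were adjusted by Benjamini-Hochberg over 15292 genes, and an adjusted p under 0.05 was a call. The study used DESeq2 with a log2 fold change above 1, and DESeq2 1.42.0, that threshold, other filters and scalings, a replicate block and leaving out each library were tried as alternatives. The fit was tested on simulated data, in which genes drawn from all those tested were changed. The smallest change put in was close to that of Suclg1 after TAC and larger than the other enzyme changes. Changes as small as these others were not simulated. The fit returned fold changes with little bias, missed most of the smallest changes put in, and recovered the fewest large ones for HCN4F against WT after TAC. The limit set for that recovery was lowered after it was missed there. Log2 CPM per library used a prior count of 2. Intervals are 95%. Ratios were compared with exact permutation tests in scipy 1.17.1.

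The members and gene lists were chosen with earlier results of these data known, and the levels per kilobase, the ratio to cardiomyocyte markers and the promoter motifs after the enzyme values were seen. A result on 1 listed gene is not reported here. The text names the 9 enzymes, 7 further cycle genes, each called gene of the neighbouring lists and the 5 genes most like the mean of the 9. Gene positions and transcript lengths are from GENCODE M21 and promoters from RefSeq. Replicate numbers did not pair the samples: same-numbered libraries had correlations of -0.12 to 0.159 in their deviations from the group means.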

Additional observations from a re-analysis of the deposited data

Results flagged for a closer look

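Ogdh in HCN4F-TAC replicate 3, at 2647 CPM, stood far above the other HCN4F-TAC libraries (2232, 2263 and 2202 CPM), with a gap to the nearest of 0.862 of the group's range, where Dixon's critical value for 4 samples is 0.829. It was 1 of 36 groups of 4 examined, and chance alone flags about 1 in 20 of such groups.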

How the results depend on the processing

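The calls rest on small changes and on 2 WT-TAC libraries. In HCN4F the number of enzymes called after TAC was 1 by the reported fit and 2 in DESeq2 (Fh1 added), 0 with a log2 fold change above 1 required, and 1 to 2 with each library left out. In WT it was 1 and became 2 with the compared groups alone (Ogdh added), 0 with the log2 fold change threshold, and 0 to 1 with each library left out. The replicate block, whose numbers do not pair the samples, gave 0 in WT (Suclg1 -0.37, adjusted p = 0.0758). It left the counts for the other comparisons as reported. Signs near 0 turned under other settings, and the cause was not tested. In WT after TAC, Cs was -0.02 and became 0.0333 on library totals without TMM and 0.0086 with no filter (-0.045 to 0.019 with each library left out). Dlst was 0.0042 there and became -0.0034 with genes kept at a mean of 1 CPM and -0.0080 with the block (-0.029 to 0.038 with each library left out), and in HCN4F after TAC it became 0.0521 without TMM. On the same totals the interaction became 0.0081 for Idh2, 0.0306 for Suclg1 and 0.0127 for Fh1, with ranges on leaving out each library of -0.078 to 0.0085, -0.063 to 0.024 and -0.070 to 0.021. With each library left out, Ogdh after TAC in HCN4F ranged from -0.012 to 0.13, and Idh2 in HCN4F against WT after Sham from -0.063 to 0.021. Of 981 enzyme values under alternatives, 946 kept their direction and their side of the threshold, 25 reversed, 5 gained a call and 5 lost one. Of 220 values of the other named genes, 65 lost their call. The ratios were not tested with a library left out, and of the 6 differences the one in Mdh2 to Mdh1 between the Sham groups changed sign in at least 1 of these settings. The number of all genes called after TAC in WT, 694, became 1224 in DESeq2, 2009 with the compared groups alone and 225 with the block, and was 11 without WT-TAC replicate 3. In HCN4F it was 2081, and 1287 with the compared groups alone. Between genotypes after Sham it was 72, and 362 in DESeq2, 219 with no filter, 41 with the block and 19 to 567 with each library left out. After TAC it was 17, and 228 in DESeq2, 146 with no filter, 8 with the block, 3 with the compared groups alone and 454 without HCN4F-TAC replicate 3. For the interaction it was 0, and 40 in DESeq2, 17 with no filter and 78 without HCN4F-TAC replicate 3.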
